A study of Mus musculus with 8 samples.

Results

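Collagen chain genes encode the polypeptides that assemble in triplets into collagens, the main structural proteins of the extracellular matrix. They were followed here in whole lung from a mouse model of allergic asthma driven by ovalbumin (OVA). Members were chosen by symbol, as every gene whose name is Col followed by a collagen type and a chain number. There were 44 such genes, all of them with a probe on the array. Of these, 34 had a probe well above background, as flagged by the scanner software, on both arrays of at least 1 group. These 34 were analysed among 16571 named genes that passed the same filter, each gene by its brightest probe. They comprised 10 of 11 fibrillar chains, 6 of 6 type IV chains of the basement membrane and 18 of 27 other chains.

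The study compared 4 groups of female BALB/c mice, bought at 4 weeks of age, housed for 2 weeks and then fed for 70 days. The group called NT received standard feed and no OVA. The other groups were all sensitized by intraperitoneal OVA on Days 42, 49 and 56 with aluminium gel and challenged by OVA inhalation on Days 63 to 69. Among them Ctrl-F received standard feed, Cap-F received feed with carbonate apatite particles that held no oligodeoxynucleotide, and ODNcap-F received feed with particles holding the CpG-oligodeoxynucleotide MsST. The comparison of Ctrl-F with NT asks what OVA sensitization and challenge did to lung transcripts. The paper calls NT non-treated and describes no sham injection, gel or aerosol for it. OVA, the gel and the handling therefore cannot be told apart in any comparison with NT. The comparisons among the OVA groups ask whether the particles or their CpG cargo altered lung transcripts in OVA mice. Lungs were taken on Day 70, and each of 2 mice per group was hybridized to 1 single-color array.

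Fibrillar collagens such as types I, II, III and V form the tension-bearing fibers of connective tissue. Type IV chains form a sheet-like network in basement membranes, under the endothelium and epithelium of the alveolus. The remaining chains build beaded filaments (type VI), anchoring fibrils (type VII) and short-chain networks (type VIII), decorate fibrils (types XII, XIV and XVI among others) or span the plasma membrane (types XIII, XVII and XXIII). In lung, chains are transcribed in fibroblasts and smooth muscle and, for type IV, also in endothelial and epithelial cells.

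All values below are log2 intensities after quantile normalization over the 8 arrays, and differences are on the same scale, so that a difference of 1 is a 2-fold change. A gene was called at an adjusted p under 0.05 in a limma fit of all 8 arrays, a linear model in which the spread of a probe is drawn toward the spread typical of all probes. With 2 mice per group, an exact two-sided permutation test of 1 gene cannot give a p below 0.333, so calls rest on the variance pooled by limma. On single arrays, 61.3% to 65.0% of probes were well above background and no spot was saturated. All arrays lay on 1 slide, with NT and Ctrl-F in row 1 and Cap-F and ODNcap-F in row 2, so that row and group cannot be told apart between the rows. Defining lung genes were high on every array, with log2 values of 17.60 to 17.64 for Sftpc, a surfactant protein of alveolar type 2 cells at the top of the scale, and 16.10 to 17.06 for Ager of alveolar type 1 cells. In whole lung, fewer cells of a type and less RNA per cell cannot be told apart.

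Collagen chain genes moved in both directions in Ctrl-F. Of the 34, 9 rose and 16 fell against NT, which makes 25 called, Col24a1 included although it was below background in NT, where the background over all named genes was 65% called, 28.1% higher and 36.9% lower. More than 2-fold apart were 5 chains that rose, Col24a1 among them, and 9 that fell, where 11.3% and 12% of named genes did so. The values of the groups did not overlap for 33 chains, against 86.5% of named genes. The median log2 difference was -0.30 over the chains and -0.09 over all named genes. By class, 6 fibrillar chains rose, Col24a1 among them, 2 fell and 2 were not called. No type IV chain rose and all 6 fell, while of the other chains 3 rose, 8 fell and 7 were not called.

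**Figure D1:**
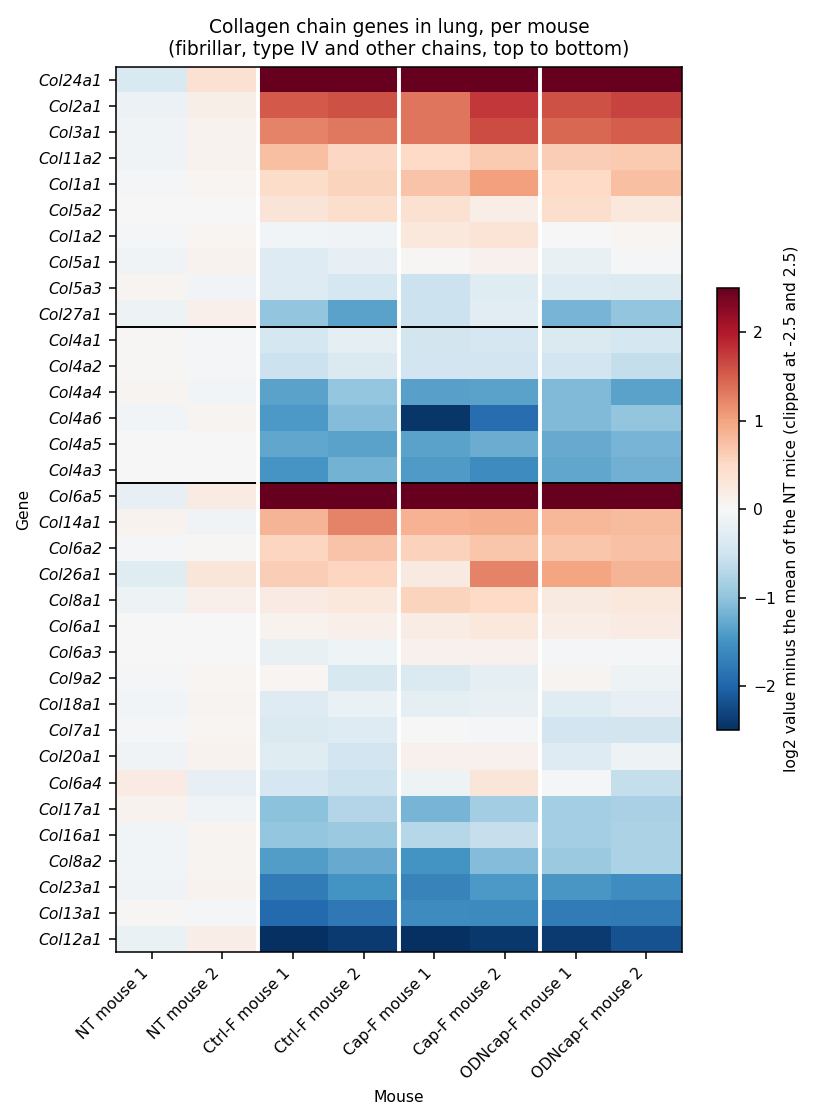
Each row is a collagen chain gene and each column a mouse, and color gives the log2 value minus the mean of the NT mice, clipped at -2.5 and 2.5. Black lines separate fibrillar, type IV and other chains, and within a class genes are ordered by the difference of Ctrl-F from NT. The type IV block is blue in all 6 OVA mice, while the fibrillar and other blocks hold both colors.

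The counts in the other OVA groups were alike. Cap-F had 24 chains called against NT, 11 higher and 13 lower, where the background was 60.7% called, 26.1% higher and 34.6% lower. ODNcap-F had 25 called, 10 higher and 15 lower, against a background of 62.2% called, 27.2% higher and 35% lower. These comparisons share the NT mice, so they are not independent of that with Ctrl-F. More than 2-fold apart in Cap-F were 4 chains that rose and 9 that fell (10.7% and 10.2% of named genes), and in ODNcap-F 4 and 8 (10.9% and 10.2%). The values did not overlap with NT for 30 chains in each, where 84.8% of named genes in Cap-F and 83.9% in ODNcap-F did not. The median log2 difference over the chains was 0.02 for Cap-F and -0.24 for ODNcap-F, against -0.10 and -0.09 over all named genes. In both, 6 fibrillar chains rose and all 6 type IV chains fell. Col24a1, below background in NT, was counted in both groups as called, as more than 2-fold higher, as not overlapping and as a fibrillar chain that rose.

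**Figure D2:**
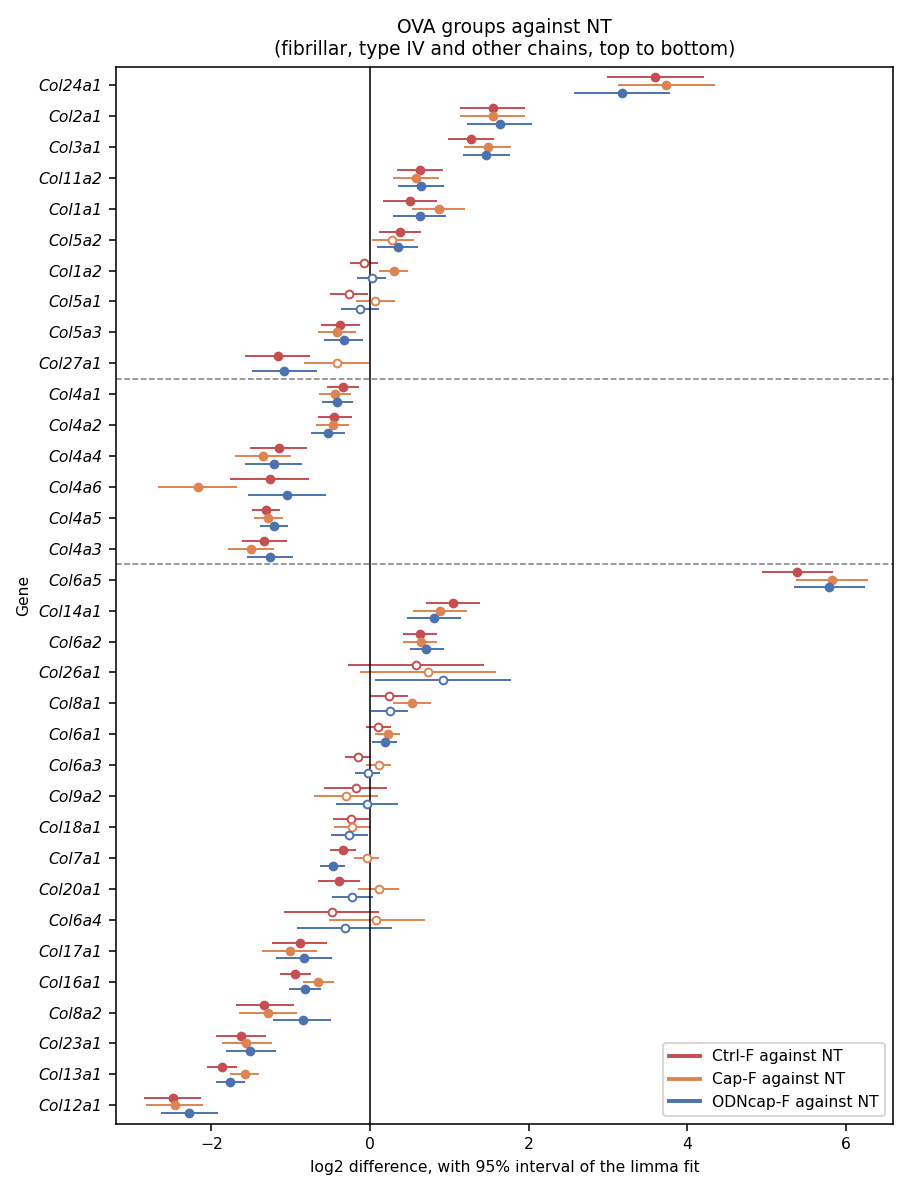
Points give the log2 difference of Ctrl-F, Cap-F and ODNcap-F from NT for each chain, lines the 95% interval of the limma fit, and filled points an adjusted p under 0.05. Dashed lines separate fibrillar, type IV and other chains. Col6a5 lies farthest to the right, between 5.39 and 5.83, and Col12a1 at -2.28 to -2.49 is at the left end in all 3 comparisons.

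To show the DNA next to the genes that moved, the bases before the start site of several chains are printed beside their values, read from a RefSeq promoter table of the build GRCm38.p6. The table held promoters for 27 of the 34 chains, and Col1a1, Col2a1, Col4a3, Col5a2, Col12a1, Col14a1 and Col26a1 were not matched. Capitals mark matches on either strand to 5 motifs, searched in the 250 bases before the start. A chain was counted if any of its listed promoters held the motif, while the share over all was counted by single promoter. The shares below are therefore in unlike units. The GC box GGGCGG, the binding motif of Sp1-type factors, was found before 18 of 27 chains and 32.7% of all 32851 promoters. The CCAAT box, read as CCAAT, was found before 10 of 27 and 33.8% of all, and the TATA box, read as TATAAA, before 4 of 27 and 12.4%. The AP-1 motif TGANTCA was found before 1 chain, Col6a1, against 6.7% of all promoters. The STAT6-type motif, TTC and GAA set 4 bases apart, the kind bound downstream of interleukin 4, was found before 0 of 27 against 5.9%, which says only that these letters are not in this window.

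Among fibrillar chains, Col3a1, Col2a1 and Col24a1 rose by more than 2-fold in every OVA group. In the comparison of Ctrl-F with NT, 9 of 12 fibroblast markers fell and 0 rose, where 36.9% of named genes were lower and 28.1% higher. The part of these markers in the results was not tested. Col3a1 encodes the chain of type III collagen, the fine fibril of distensible tissue. Its log2 value was 12.42 and 12.60 among NT mice, 13.75 and 13.83 among Ctrl-F mice, 13.85 and 14.15 among Cap-F mice and 13.95 and 14.02 among ODNcap-F mice. All 6 OVA mice lay above both NT mice. Against NT the log2 difference was 1.28 (SE 0.12, adjusted p = 0.000353, limma) for Ctrl-F, 1.49 for Cap-F and 1.47 for ODNcap-F. Col2a1, the chain of type II collagen, best known from cartilage, was at 7.83 and 8.14 among NT mice, 9.51 and 9.57 among Ctrl-F mice, 9.33 and 9.75 among Cap-F mice and 9.57 and 9.67 among ODNcap-F mice. The groups did not overlap with NT, and the difference in Ctrl-F was 1.55 (SE 0.17, adjusted p = 0.000541, limma). Of 8 cartilage markers, Comp rose as well. Sox9 was kept only through the OVA groups, where it is high, so it had to differ from NT, and the other 6 were not kept.

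Col24a1, a minor fibrillar chain known from developing bone and cornea, was not well above background in either NT mouse. Its values were 2.27 and 3.03 among NT mice, 6.25 and 6.26 among Ctrl-F mice, 6.51 and 6.26 among Cap-F mice and 5.95 and 5.72 among ODNcap-F mice. Set against the lowest signal above background on the NT arrays, it was at least 6.18-fold higher in Ctrl-F (adjusted p = 0.000119, limma), at least 6.78-fold higher in Cap-F and at least 4.62-fold higher in ODNcap-F. It passed the background filter only through the OVA groups, where it is high, so it had to differ from NT, and the adjusted p rests on NT values below background and is no support for the change. Promoters of Col3a1, at chr1:45311288-45311537 on the plus strand, and Col24a1, at chr3:145292222-145292471 on the plus strand, are shown as those of fibrillar chains that rose. Each is printed in the direction of the gene and ends at the base before the start site, and Col3a1 carries a TATAAA match while Col24a1 holds none of the 5 motifs.
Col3a1: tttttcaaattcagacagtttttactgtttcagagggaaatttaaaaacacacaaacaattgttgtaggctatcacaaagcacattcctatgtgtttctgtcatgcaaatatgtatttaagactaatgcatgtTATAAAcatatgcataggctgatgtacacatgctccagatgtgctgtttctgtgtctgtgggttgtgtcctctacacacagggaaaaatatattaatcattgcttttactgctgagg
Col24a1: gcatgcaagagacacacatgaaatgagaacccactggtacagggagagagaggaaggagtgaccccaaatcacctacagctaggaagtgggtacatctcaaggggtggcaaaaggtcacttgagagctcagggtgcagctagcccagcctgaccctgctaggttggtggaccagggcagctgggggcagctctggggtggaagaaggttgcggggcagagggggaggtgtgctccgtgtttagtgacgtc

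The genes of type I collagen, the most abundant fibril of the body, differed in their calls. Col1a1 was at 12.17 and 12.28 among NT mice, 12.68 and 12.78 among Ctrl-F mice, 12.93 and 13.25 among Cap-F mice and 12.73 and 12.97 among ODNcap-F mice. The OVA mice were all above the NT mice, by 0.50 for Ctrl-F (SE 0.14, adjusted p = 0.0203, limma), 0.87 for Cap-F and 0.63 for ODNcap-F. The call in Ctrl-F was lost without any 1 of the 4 mice compared, at differences of 0.45 to 0.56 and adjusted p of 0.0526 to 0.0923. Its partner Col1a2 was at 14.17 and 14.28 among NT mice, 14.15 and 14.14 among Ctrl-F mice, 14.48 and 14.56 among Cap-F mice and 14.22 and 14.27 among ODNcap-F mice. It differed from NT by -0.07 (SE 0.07, adjusted p = 0.408, limma) for Ctrl-F and 0.02 for ODNcap-F, and rose in Cap-F, by 0.30 (adjusted p = 0.0148, limma), a call lost without NT mouse 1 or Cap-F mouse 2. The difference between the chains was itself not tested.

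Type V chains, which sit inside type I fibrils and limit their width, also parted. Col5a2 was at 7.89 and 7.90 among NT mice and 8.21 and 8.33 among Ctrl-F mice, and rose by 0.38 (adjusted p = 0.0233, limma). It was also called in ODNcap-F, by 0.35, and was not called in Cap-F, at 0.28 (adjusted p = 0.0631, limma). Col5a3 was at 8.12 and 7.99 among NT mice and 7.73 and 7.62 among Ctrl-F mice, and fell by 0.38 (adjusted p = 0.0188, limma). Col5a1 differed by -0.26 (95% interval -0.51 to -0.02, adjusted p = 0.0636, limma) and was not called in any OVA group. Col27a1, a fibrillar chain with a short triple helix, was at 7.06 and 7.30 among NT mice, 6.20 and 5.84 among Ctrl-F mice, 6.64 and 6.89 among Cap-F mice and 6.01 and 6.20 among ODNcap-F mice. It fell by 1.16 for Ctrl-F (adjusted p = 0.00167, limma) and by 1.08 for ODNcap-F, and its difference in Cap-F was -0.42 (adjusted p = 0.0762, limma).

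The probes of Col11a2, which encodes a chain of the type XI fibril core, went apart. The brightest probe was at 4.31 and 4.49 among NT mice, 5.16 and 4.91 among Ctrl-F mice, 4.90 and 5.06 among Cap-F mice and 5.02 and 5.06 among ODNcap-F mice, and differed by 0.63 for Ctrl-F (adjusted p = 0.00489, limma). The other probe, well above background on only 2 arrays, differed by -0.06 (adjusted p = 0.82, limma).

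All type IV chains fell in every OVA group. All 6 endothelial markers and all 5 measured markers of alveolar type 1 cells fell in the same groups, and their part in the result was not tested. In vertebrates the type IV chains work as pairs of genes that lie head to head. Their proteins assemble as trimers of Col4a1 with Col4a2 chains, of Col4a3 with Col4a4 and Col4a5 chains, and of Col4a5 with Col4a6 chains. The start sites of Col4a1 and Col4a2 lay 21 bases apart on chromosome 8, and those of Col4a5 and Col4a6 lay 1343 bases apart on chromosome X.

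The smallest differences of the class were those of the common pair. Col4a1 was at 13.27 and 13.23 among NT mice, 12.82 and 13.00 among Ctrl-F mice, 12.80 and 12.83 among Cap-F mice and 12.88 and 12.81 among ODNcap-F mice. Both NT mice lay above all 6 OVA mice. The difference was -0.34 for Ctrl-F (SE 0.08, adjusted p = 0.0125, limma), -0.44 for Cap-F and -0.41 for ODNcap-F. In Ctrl-F the call was lost when arrays were scaled to their 75th percentile, at -0.22 (adjusted p = 0.0576), and without NT mouse 1 (-0.32) or Ctrl-F mouse 1 (-0.26). Col4a2 was at 12.96 and 12.92 among NT mice, 12.40 and 12.58 among Ctrl-F mice, 12.47 and 12.46 among Cap-F mice and 12.47 and 12.35 among ODNcap-F mice. It fell by 0.45 for Ctrl-F (SE 0.09, adjusted p = 0.00559, limma), and its mice did not overlap with NT either.

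The chains of the specialized networks fell by more than 2-fold in all 3 OVA groups. Col4a3 and Col4a4, with Col4a5 the chains affected in Alport syndrome, are found in the lung in the basement membrane of the alveolus. Col4a3 was at 9.75 in both NT mice, 8.28 and 8.57 among Ctrl-F mice, 8.34 and 8.17 among Cap-F mice and 8.45 and 8.54 among ODNcap-F mice. Col4a4 was at 9.80 and 9.67 among NT mice, 8.40 and 8.77 among Ctrl-F mice, 8.38 and 8.39 among Cap-F mice and 8.64 and 8.40 among ODNcap-F mice. Col4a5 was at 10.57 and 10.60 among NT mice, 9.29 and 9.25 among Ctrl-F mice, 9.25 and 9.35 among Cap-F mice and 9.32 and 9.43 among ODNcap-F mice. For each of these chains both NT mice stood above every OVA mouse. In Ctrl-F the differences were -1.33 (SE 0.12, adjusted p = 0.000275, limma) for Col4a3, -1.15 for Col4a4 and -1.31 for Col4a5, and in Cap-F and ODNcap-F they ran from -1.21 to -1.50.

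Col4a6, a chain of smooth muscle and epithelial basement membranes, was at 6.27 and 6.39 among NT mice, 4.89 and 5.25 among Ctrl-F mice, 3.89 and 4.42 among Cap-F mice and 5.22 and 5.35 among ODNcap-F mice, and Cap-F mouse 1 was not well above background. Both Cap-F mice were below the other OVA mice. Against NT it fell by 1.26 for Ctrl-F (SE 0.20, adjusted p = 0.00263, limma), by 2.17 for Cap-F and by 1.04 for ODNcap-F. The bases before the starts of Col4a6, at chrX:141474077-141474326 on the minus strand, and Col4a5, at chrX:141475169-141475369 on the plus strand, are shown as those of a head-to-head pair in which both genes fell. For Col4a5 they stop before the first of its annotated starts.
Col4a6: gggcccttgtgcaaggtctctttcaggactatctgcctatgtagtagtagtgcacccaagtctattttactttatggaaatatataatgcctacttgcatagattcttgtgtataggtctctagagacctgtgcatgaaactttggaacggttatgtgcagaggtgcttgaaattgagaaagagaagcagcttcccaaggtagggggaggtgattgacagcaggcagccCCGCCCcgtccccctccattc
Col4a5: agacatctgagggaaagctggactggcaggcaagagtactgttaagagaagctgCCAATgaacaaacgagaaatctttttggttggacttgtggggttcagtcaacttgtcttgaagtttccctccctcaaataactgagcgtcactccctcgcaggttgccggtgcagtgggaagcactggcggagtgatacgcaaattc
In Col4a6 the capitals are a GC box, read as CCGCCC because it lies on the opposite strand, and in Col4a5 they are a CCAAT match. The 250 bases before the Col4a5 start also hold a GC box, which lies past the end of the printed stretch.

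**Figure D3:**
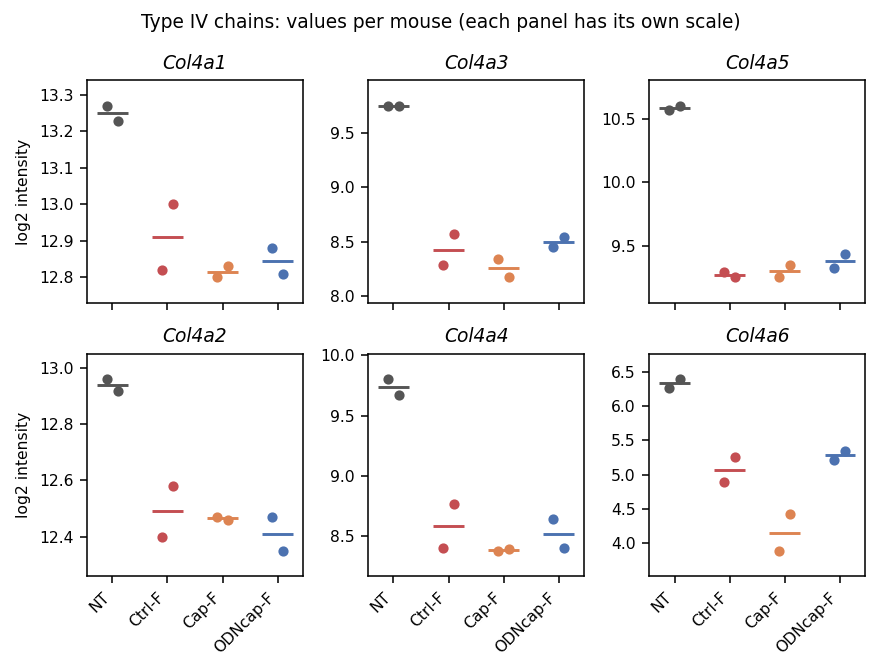
Each panel gives the log2 intensity of a type IV chain, with a point per mouse and a line at the group mean, and each panel has its own scale. The NT mice lie above all OVA mice in all 6 panels, and the Cap-F mice are lowest for Col4a6, at 3.89 and 4.42.

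The type VI chains, which form beaded filaments around cells, held the largest change. Col6a5, an alternative chain of that filament, was at 6.11 and 6.51 among NT mice, 11.58 and 11.82 among Ctrl-F mice, 11.98 and 12.29 among Cap-F mice and 12.00 and 12.20 among ODNcap-F mice. Every OVA mouse was more than 5 above both NT mice on the log2 scale. The difference from NT was 5.39 for Ctrl-F, or 41.9-fold (SE 0.18, adjusted p = 1.27e-05, limma), 5.83 for Cap-F and 5.79 for ODNcap-F. A dimmer probe of the gene gave 5.48, 5.82 and 5.77. The bases before its start, at chr9:105960644-105960893 on the minus strand, are shown as those of the chain that rose most, and they hold a GC box.
Col6a5: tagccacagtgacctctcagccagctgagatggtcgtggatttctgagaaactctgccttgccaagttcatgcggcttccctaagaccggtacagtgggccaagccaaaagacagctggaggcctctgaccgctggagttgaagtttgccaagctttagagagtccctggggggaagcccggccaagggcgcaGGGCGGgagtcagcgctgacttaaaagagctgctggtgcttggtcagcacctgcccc

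Of the other type VI chains, Col6a2 was called in every OVA group. Col6a2, a chain of the common filament, was at 10.34 and 10.38 among NT mice, 10.90 and 11.08 among Ctrl-F mice, 10.94 and 11.05 among Cap-F mice and 11.05 and 11.09 among ODNcap-F mice, all OVA mice being above NT. It rose by 0.63 for Ctrl-F (adjusted p = 0.00145, limma). Col6a1, its partner, differed by 0.10 for Ctrl-F (95% interval -0.05 to 0.26, adjusted p = 0.2, limma) and was called higher in Cap-F, by 0.23, and in ODNcap-F, by 0.19. Col6a3, the longest chain of that filament, was at 11.94 and 11.97 among NT mice and 11.76 and 11.85 among Ctrl-F mice by its brightest probe, a difference of -0.15 (adjusted p = 0.0938, limma). Its dimmer probe was called higher in all 3 OVA groups, by 0.34 for Ctrl-F (adjusted p = 0.0232, limma), 0.55 for Cap-F and 0.49 for ODNcap-F, where the brightest probe was called in none. Col6a4 varied between mice of a group, at 7.00 and 6.58 among NT mice and 6.75 and 6.19 among ODNcap-F mice, and was not called. Col6a6 was not well above background on any array.

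Of 5 measured fibril-associated chains, which coat fibrils and tie them to other matrix, 3 fell, 1 rose and 1 was not called in Ctrl-F. Over all named genes, 36.9% were lower and 28.1% higher there. Col12a1, which encodes type XII collagen of dense connective tissue, was at 8.07 and 8.40 among NT mice, 5.63 and 5.85 among Ctrl-F mice, 5.72 and 5.83 among Cap-F mice and 5.85 and 6.06 among ODNcap-F mice. All OVA mice lay more than 2 below the NT mice, and the difference in Ctrl-F was -2.49, or 5.63-fold lower (SE 0.15, adjusted p = 7.15e-05, limma). Its second probe, well above background on 2 arrays, differed by -1.48 (adjusted p = 0.111, limma). Col14a1, the related type XIV chain, went the other way, from 6.74 and 6.56 among NT mice to 7.50 and 7.89 among Ctrl-F mice, 7.51 and 7.55 among Cap-F mice and 7.48 and 7.45 among ODNcap-F mice. It rose by 1.05 for Ctrl-F (adjusted p = 0.00121, limma) without overlap. Col16a1 was at 12.20 and 12.32 among NT mice and 11.30 and 11.33 among Ctrl-F mice, and fell by 0.94 (adjusted p = 0.000254, limma). Col20a1 fell by 0.39 for Ctrl-F and was not called in Cap-F or ODNcap-F, while Col9a2 was called in no group.

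The 3 measured transmembrane chains all fell in every OVA group. Col13a1, a cell-surface collagen of adhesion sites, was at 11.83 and 11.78 among NT mice, 9.87 and 10.02 among Ctrl-F mice, 10.23 and 10.21 among Cap-F mice and 10.06 and 10.03 among ODNcap-F mice. Col23a1, a chain of the same class, was at 9.51 and 9.67 among NT mice, 7.84 and 8.09 among Ctrl-F mice, 7.92 and 8.15 among Cap-F mice and 8.13 and 8.04 among ODNcap-F mice. For both, OVA mice and NT mice were more than 1 apart. Col13a1 fell by 1.86 for Ctrl-F (SE 0.08, adjusted p = 2.22e-05, limma) and Col23a1 by 1.63 (SE 0.13, adjusted p = 0.000181, limma), and their dimmer probes fell by 1.99 for Col13a1 and by 1.67 and 1.85 for Col23a1. Col17a1, the collagen of hemidesmosomes in basal epithelial cells, was at 6.69 and 6.50 among NT mice and 5.57 and 5.86 among Ctrl-F mice, and fell by 0.88 (adjusted p = 0.00266, limma). Promoters of Col13a1, at chr10:61979109-61979358 on the minus strand, and Col23a1, at chr11:51289670-51289919 on the plus strand, are shown as those of transmembrane chains that fell, the former with a TATAAA match and the latter with a GC box on the opposite strand, read as CCGCCC.
Col13a1: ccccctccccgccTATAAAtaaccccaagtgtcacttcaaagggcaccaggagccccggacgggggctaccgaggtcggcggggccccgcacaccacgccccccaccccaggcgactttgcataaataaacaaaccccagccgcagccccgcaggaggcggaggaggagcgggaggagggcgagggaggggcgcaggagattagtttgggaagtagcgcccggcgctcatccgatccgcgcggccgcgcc
Col23a1: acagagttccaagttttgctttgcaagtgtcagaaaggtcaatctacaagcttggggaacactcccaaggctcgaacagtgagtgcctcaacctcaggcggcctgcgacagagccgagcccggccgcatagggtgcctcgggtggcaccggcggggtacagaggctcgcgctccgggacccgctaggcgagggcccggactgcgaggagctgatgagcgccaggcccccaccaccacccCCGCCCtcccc

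**Figure D4:**
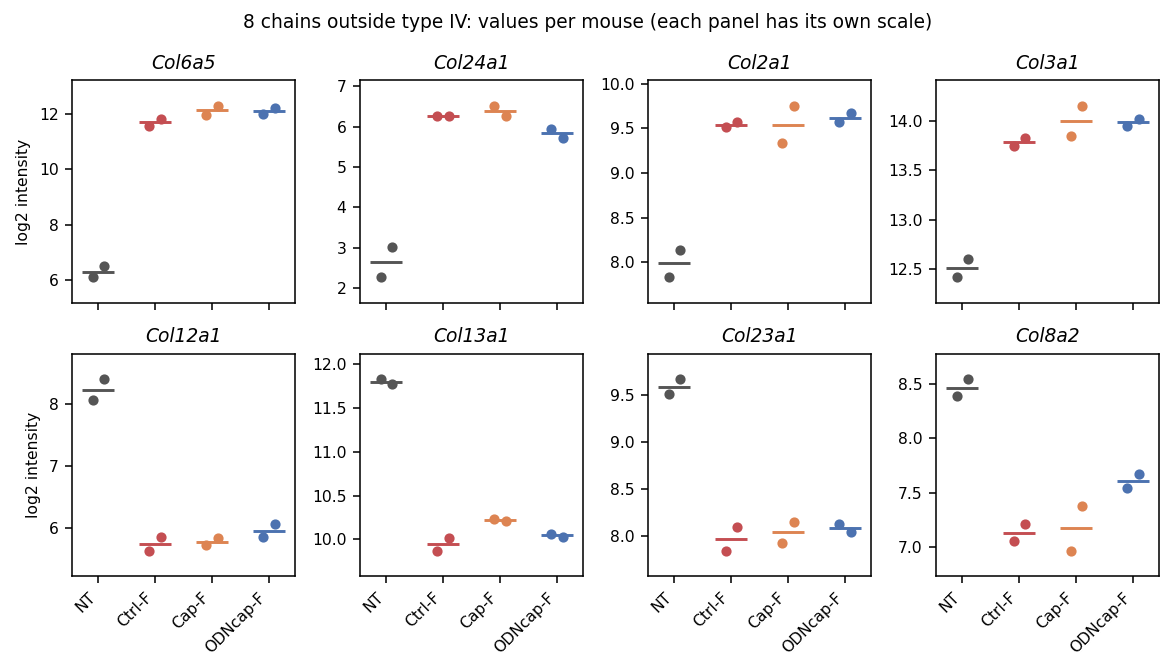
Each panel gives the log2 intensity of a chain with a point per mouse and a line at the group mean, and each panel has its own scale. The upper panels hold chains whose OVA mice all lie above NT and the lower panels chains whose OVA mice all lie below, and for Col24a1 the NT points, at 2.27 and 3.03, were not well above background.

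Of the short-chain networks, Col8a2 was at 8.39 and 8.54 among NT mice, 7.06 and 7.21 among Ctrl-F mice, 6.97 and 7.38 among Cap-F mice and 7.54 and 7.67 among ODNcap-F mice. Type VIII collagen is known from vessel walls and from the layer under corneal endothelium. Col8a2 differed by -1.33 for Ctrl-F (SE 0.15, adjusted p = 0.00066, limma), -1.29 for Cap-F and -0.85 for ODNcap-F, called in each. Its partner Col8a1 was at 10.28 and 10.52 among NT mice, 10.61 and 10.67 among Ctrl-F mice, 10.96 and 10.90 among Cap-F mice and 10.62 and 10.67 among ODNcap-F mice, above NT in all OVA mice, and was called in Cap-F, by 0.53 (adjusted p = 0.00495, limma). Col7a1, the anchoring fibril under stratified epithelium, was at 9.77 and 9.86 among NT mice, 9.45 and 9.49 among Ctrl-F mice, 9.80 and 9.76 among Cap-F mice and 9.33 and 9.36 among ODNcap-F mice. It fell by 0.34 for Ctrl-F (adjusted p = 0.00555, limma) and by 0.47 for ODNcap-F, and differed by -0.04 for Cap-F.

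Among chains that carry an endostatin-type fragment, Col18a1, a proteoglycan of vascular basement membranes, was at 11.35 and 11.50 among NT mice, 11.11 and 11.26 among Ctrl-F mice, 11.18 and 11.24 among Cap-F mice and 11.12 and 11.22 among ODNcap-F mice. The OVA mice lay below the NT mice, but the difference of -0.24 for Ctrl-F was not called (95% interval -0.47 to -0.01, adjusted p = 0.0634, limma). Col15a1, its relative, was not well above background on any array, with values of 1.70 and 2.00 among NT mice, 3.46 and 1.72 among Ctrl-F mice, 3.42 and 3.57 among Cap-F mice and 3.70 and 3.53 among ODNcap-F mice, and values below background cannot be ranked. Col26a1 differed by 1.02 between the Cap-F mice, the only one of the 34 measured chains more than 2-fold apart within a group, and was not called. Not kept beside Col15a1 and Col6a6 were Col9a1, Col9a3, Col10a1, Col11a1, Col19a1, Col22a1, Col25a1 and Col28a1. Of these 10, only Col22a1 and Col25a1 were well above background on any array, each on 1 NT array, and Col25a1 was at 5.56 in NT mouse 2 against 1.86 in NT mouse 1 and 1.88 to 2.05 in the OVA mice.

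Over the chains, mice of 1 group differed less from each other than the OVA groups did from NT. In NT, Ctrl-F and Cap-F the chains still varied more between mice than named genes did. The median absolute difference over the 34 chains was 0.14 in NT, 0.15 for Ctrl-F, 0.13 for Cap-F and 0.10 for ODNcap-F, where over all named genes it was 0.09, 0.10, 0.09 and 0.12. The median absolute difference from NT over the chains was 0.63 for Ctrl-F, 0.64 for Cap-F and 0.76 for ODNcap-F, and over all named genes it was 0.47, 0.43 and 0.44.

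Feeding was addressed by the comparisons among the OVA groups. No chain was called between ODNcap-F and Ctrl-F, where 0% of named genes were called and the smallest adjusted p of a chain in limma was 0.736. At an unadjusted p under 0.05 there was 1 chain, Col8a2, against 5.81% of named genes. Its ODNcap-F mice, at 7.54 and 7.67, lay above the Ctrl-F mice, at 7.06 and 7.21, by 0.47 (95% interval 0.10 to 0.84, adjusted p = 0.736, limma), and below both NT mice. The differences of the other chains ran from -0.42 for Col24a1 to 0.40 for Col6a5. The groups did not overlap for 16 chains, 13 higher and 3 lower, where 35.6% of named genes did not overlap, 18.7% higher and 17% lower. For the type IV chains the differences ran from -0.09 to 0.22, and for Col4a1 the interval was -0.27 to 0.13, for Col4a3 it was -0.22 to 0.36 and for Col3a1 it was -0.10 to 0.49. The absence of a call does not show equal levels.

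Between ODNcap-F and Cap-F no chain was called either, with 0% of named genes called and a smallest adjusted p of 0.183 in limma. At an unadjusted p there were 7 chains, where 11.7% of named genes passed, and the groups did not overlap for 19, 8 higher and 11 lower, against 45.2% of named genes, 23.2% higher and 22% lower. These 7 are named here after their values were seen. Higher in ODNcap-F were Col4a6, by 1.13 (95% interval 0.63 to 1.62, adjusted p = 0.205, limma) and not well above background in Cap-F mouse 1, and Col8a2, by 0.43. Lower were Col27a1 (-0.66), Col7a1 (-0.43), Col20a1 (-0.33), Col1a2 (-0.28) and Col8a1 (-0.28).

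Between Cap-F and Ctrl-F, which differ in the particles without the oligodeoxynucleotide, 0 chains were called in limma, where 0% of named genes were, and the smallest adjusted p was 0.153. At an unadjusted p there were 11 chains, 10 higher and 1 lower, where 15.3% of named genes passed. The groups did not overlap for 16 chains, 14 higher and 2 lower, against 52.3% of named genes, 25% higher and 27.3% lower. The chains past the unadjusted p, named after their values were seen, were Col27a1 (0.75), Col20a1 (0.50), Col1a2 (0.37), Col1a1 (0.36), Col5a1 (0.33), Col7a1 (0.31), Col16a1 (0.29), Col8a1 (0.29), Col13a1 (0.28) and Col6a3 (0.26), and on the lower side Col4a6 (-0.91). With an intensity trend in the limma prior, 1 chain was called, higher in Cap-F. The share of all named genes called under that setting was not counted, so this call cannot be weighed. Cap-F and Ctrl-F lay in different rows of the slide.

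**Figure D5:**
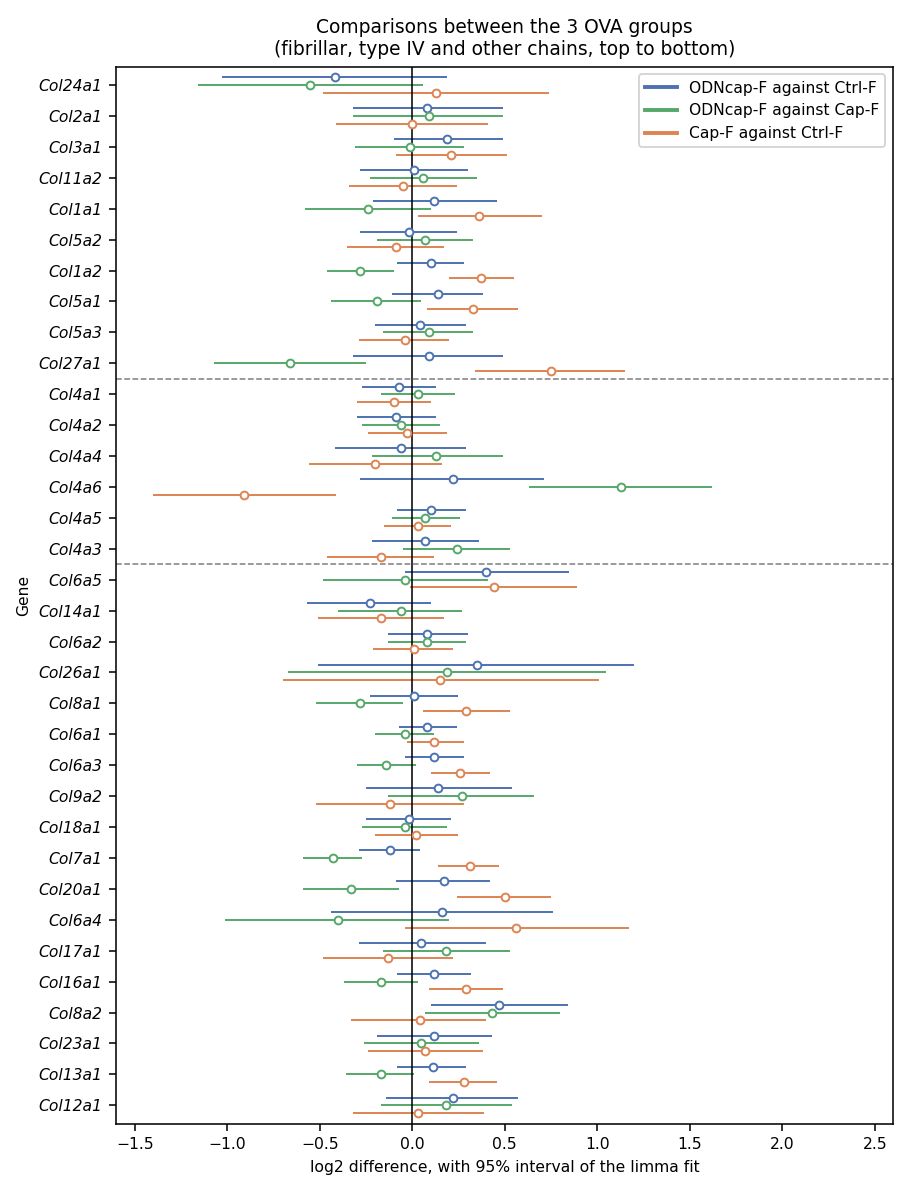
Points give the log2 difference of each chain in the comparisons ODNcap-F against Ctrl-F, ODNcap-F against Cap-F and Cap-F against Ctrl-F, with lines for the 95% interval of the limma fit. All points are open because none passed the adjusted p, and Col4a6 shows the widest departures, at 1.13 and -0.91 in the comparisons with Cap-F.

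Genes that make, cut, bind and induce collagen were counted in the same fit. Beside each count below stand the shares over all named genes in Ctrl-F, 28.1% higher and 36.9% lower. Of 20 folding and modification enzymes and chaperones, 4 rose, 11 fell and 5 were not called in Ctrl-F. Ppib (0.80), P4hb (0.51) and Colgalt1 (0.35), a prolyl isomerase, the shared subunit of prolyl hydroxylase and a collagen galactosyltransferase, were among those that rose. Colgalt2 (-1.69), Plod2 (-1.45) and P4ha2 (-1.39), a second galactosyltransferase, a lysyl hydroxylase and a catalytic subunit of prolyl hydroxylase, fell most. Of 6 measured propeptide-cleavage genes 4 fell and 0 rose, with Pcolce2 at -2.73 and Pcolce at -1.11, enhancers of C-propeptide removal, and Adamts2, an N-proteinase, at -1.28. Of 5 crosslinking enzymes of the lysyl oxidase family, Loxl4 (2.04) and Lox (0.43) rose and Loxl1 (-0.54) fell.

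Of 9 measured small leucine-rich proteoglycans, which bind fibrils and set their spacing, 6 fell and 0 rose, with Omd at -3.12, Lum at -2.88 and Ogn at -1.98. Of 10 collagen receptors 9 fell, among them Gp6 (-2.34), the platelet receptor, and the integrin subunits Itga11 (-1.92) and Itga1 (-1.38). Lair1, an inhibitory collagen receptor of leukocytes, rose by 1.59, from 7.92 and 7.65 among NT mice to 9.41 and 9.33 among Ctrl-F mice. Of 10 inducers 4 rose, Il13 among them, and 6 fell, where 28.1% of named genes were higher and 36.9% lower. Il4, the type 2 cytokine, was at 5.16 and 5.42 among NT mice and 9.11 and 9.28 among Ctrl-F mice, a difference of 3.90 (adjusted p = 8.69e-06, limma), and Il13, not well above background in NT, was at least 2.93-fold higher. Il13 passed the filter only through the OVA groups, where it is high, so it had to differ from NT and its call is no support for a change. Tgfb1, the main fibrogenic cytokine, rose by 0.66, while Tgfb2 (-1.36), Pdgfa (-1.03) and Pdgfb (-0.72) fell. Of 15 other basement membrane genes 13 fell, with Lamc3 at -2.26, Lama2 at -1.59 and Lama3 at -1.26, laminin chains that lie beside type IV collagen, and Lama1 rose by 0.91. No gene of these lists was called among the OVA groups.

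Markers of the cells of the lung also moved in Ctrl-F, and their part in the collagen values was not tested. Beside every marker list below stand the shares over all named genes in Ctrl-F, 28.1% higher and 36.9% lower. All 6 endothelial markers fell, and their summed intensity was 70500 in both NT mice and 26300 to 32000 among Ctrl-F mice, 29300 to 31900 among Cap-F mice and 31300 to 32100 among ODNcap-F mice. All 5 measured markers of alveolar type 1 cells fell, from sums of 245000 to 258000 among NT mice to 115000 to 130000 among Ctrl-F mice, 113000 to 116000 among Cap-F mice and 125000 to 136000 among ODNcap-F mice. Basement membranes of these cells hold type IV chains, but falling markers were not particular to them. The lists of fibroblasts and of alveolar type 2, club and mesothelial cells, given below, also held genes that fell. Of 12 fibroblast markers 9 fell and 0 rose, from sums of 155000 to 158000 among NT mice to 38100 to 43300 among Ctrl-F mice, 51100 to 56100 among Cap-F mice and 40700 to 45000 among ODNcap-F mice. Inmt, which leads that sum at 17.00 and 16.94 on the log2 scale in NT, fell by 2.34, the most of the list, and Postn differed by 0.08 (adjusted p = 0.73, limma).

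Of 6 smooth muscle markers 1 was called higher and 0 lower, with sums of 33200 to 36200 among NT mice, 29500 to 43100 among Ctrl-F mice, 38600 to 45600 among Cap-F mice and 36100 to 42700 among ODNcap-F mice. Of 10 leukocyte markers 8 rose and 2 fell, with sums of 57500 to 62800 among NT mice, 99700 to 102000 among Ctrl-F mice, 99200 to 108000 among Cap-F mice and 81900 to 97600 among ODNcap-F mice. For cartilage, which carries Col2a1 in the airway wall, 6 of 8 markers were not well above background in both mice of any group, Acan, Matn1, Matn3, Hapln1, Cnmd and Snorc. Of the others, Comp rose by 2.47, and Sox9, not well above background in NT, was at least 18.1-fold higher. Sox9 passed the background filter only through the OVA groups, where it is high. It therefore had to differ from NT, and its call is no support for a change. The sum of Comp and Sox9 was 75.2 to 78.4 in NT, 606 to 628 among Ctrl-F mice, 482 to 568 among Cap-F mice and 505 to 521 among ODNcap-F mice.

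Of the remaining lists, 3 of 5 markers of alveolar type 2 cells and 2 of 3 of club cells fell in Ctrl-F, with sums of 396000 to 402000 and 423000 to 453000 among NT mice and 358000 to 367000 and 223000 to 233000 among Ctrl-F mice. Of 4 mesothelial markers 2 fell, with a sum of 10600 in both NT mice and 3760 to 4330 among Ctrl-F mice. Of 3 measured Schwann cell markers 2 fell, among them Sox10, not well above background in Ctrl-F and at least 1.63-fold lower. Cardiomyocyte markers, 5 of 8 lower in Ctrl-F and 0 of 8 called in Cap-F or ODNcap-F, summed to 16500 to 33500 among NT mice, 5430 to 6820 among Ctrl-F mice, 5550 to 18400 among Cap-F mice and 14000 to 20900 among ODNcap-F mice. Adipocyte markers, 4 of 5 lower in Ctrl-F, summed to 3180 to 4380 among NT mice and 309 to 544 among Ctrl-F mice. Among those lower, Adipoq and Plin1 were not well above background in Ctrl-F, at least 6.52-fold and 3.33-fold below NT. The Ctrl-F sum thus includes values below background. In Cap-F 2 of 5 adipocyte markers were lower, among them Plin1, not well above background there and at least 3.25-fold lower, and the sums were 354 and 1980. In ODNcap-F 1 of 5 was lower and the sums were 1510 and 2850. For the cardiomyocyte and adipocyte counts in Cap-F, the shares over all named genes were 34.6% lower and 26.1% higher. For those in ODNcap-F they were 35% and 27.2%. No marker list had a gene called among the OVA groups.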

How the data were processed

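RNA from the lungs of 8 mice, 2 in each of 4 groups, was hybridized to 8 single-color Agilent arrays. The deposited scanner files hold spot intensity, processed by the authors with Agilent Feature Extraction 11.0, per the file headers. A deposited table holds log2 values of 32312 probes, made by the authors by quantile normalization. The median gap between recomputed and deposited values was 3.23e-07, the widest 0.125.

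Control spots and outlier flags (792 values) were left out, spots of a probe were averaged, and the log2 processed signal of 56605 probes was quantile normalized. Kept were 37116 probes that passed the scanner software's background flag in both mice of 1 or more groups. Symbols came from RefSeq accessions, which named 58.3% of probes. All 8 arrays entered 1 linear model in limma 3.58.1 (R 4.3.3, package data.table, version 1.17.8) with 4 residual degrees of freedom, and p-values were adjusted by Benjamini-Hochberg over all kept probes. The script was tested on simulated data. Where a group was not well above background, a fold was computed against the lowest signal above it. Precision is limited by how few arrays there are.

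All measured chains are accounted for, with values per mouse for types I, III, IV, XV and XVIII and for up to 6 called chains of largest change in each direction. Of other lists, up to 3 called genes in each direction are named. Alternatives were 75th percentile scaling, normexp with an offset of 50, the deposited table, other filters on dim probes, an intensity trend, only the groups compared, the methods' local-pooled-error test rebuilt from its definition, other probes, other call rules, a replicate block and leaving out each array. The members, lists and tests were chosen with earlier results of these data known.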

Additional observations from a re-analysis of the deposited data

Results flagged for a closer look

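For a few chains, both mice of 1 OVA group lay above both NT mice while both mice of another lay below them. In Cap-F against Ctrl-F this held for Col1a2, with a log2 difference of 0.37, Col6a3, with 0.26, and Col20a1, with 0.50. In ODNcap-F against Cap-F it held for Col6a3, with -0.14, and Col20a1, with -0.33. None of these differences passed the adjusted p in limma (0.153, 0.183, 0.165, 0.421 and 0.316 in that order). How many of all named genes show the same pattern was not counted. Some gaps to NT were narrower than that between the NT mice. Col1a2 was at 14.15 in Ctrl-F mouse 1 and 14.17 in NT mouse 1, and Col20a1 at 8.51 in Cap-F mouse 2 and 8.49 in NT mouse 2. Col6a3 was at 11.93 in ODNcap-F mouse 2 and 11.94 in NT mouse 1. A dimmer probe of Col6a3, not used for the gene's own value, was called higher in Ctrl-F than in NT, by 0.34 on the log2 scale (adjusted p = 0.0232, limma), where the brightest probe differed by -0.15. The dimmer probe was also called higher in Cap-F, by 0.55, and in ODNcap-F, by 0.49. The cause was not tested.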

How the results depend on the processing

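The counts of chains called against NT (25 for Ctrl-F, 24 for Cap-F, 25 for ODNcap-F) stayed within 1.5 times under 20 of 21 alternatives each. The exception was a fold over 2 beside the adjusted p, which left 14, 13 and 12. Leaving out 1 mouse gave 21 to 25 in Ctrl-F, 21 to 24 in Cap-F and 21 to 25 in ODNcap-F, and 0 to 0 in each comparison among OVA groups. At an unadjusted p, ODNcap-F against Ctrl-F had 1 chain, ODNcap-F against Cap-F 7 and Cap-F against Ctrl-F 11, and an intensity trend gave 1 in the last. No pairing of the mice by replicate number is stated, and the deviations of same-numbered mice correlated at -0.01 to 0.16 between groups. Among the 34 chains, however, mouse 2 was more often the higher one within every group. This held for 22 chains of ODNcap-F, 24 of NT, 26 of Cap-F and 25 of Ctrl-F, and the cause was not tested. A replicate block gave 27, 25 and 25 chains against NT and 0, 0 and 0 among the OVA groups.

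For single chains, 987 of 1017 values under alternatives kept direction and call, 29 lost the call and 1 reversed, Col11a2 in Ctrl-F by its second brightest probe, at -0.06, an alternative chosen after seeing the data. Its call was also lost with normexp (0.16), the mean of its probes (0.28) and the local-pooled-error test (adjusted p = 0.162). The call of Col1a1 in ODNcap-F was lost without NT mouse 1 (0.57, adjusted p = 0.0518 in limma). That of Col1a2 in Cap-F was lost without NT mouse 1 (0.24) or Cap-F mouse 2 (0.26). The causes were not tested.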
